A study of Arabidopsis thaliana with 3 samples.

Results

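The 10 genes described here carry out proline synthesis, proline breakdown and proline-selective uptake in Arabidopsis thaliana, and they were selected by the first 9 characters of their TAIR locus code. Of these 10 genes, 9 had a spot on the arrays, among 26017 loci with a gene spot, and the 9 genes held 11 of the 29234 gene spots. P5CS1 (AT2G39800) and PROT1 (AT2G39890) lie on chromosome 2, and P5CS2 (AT3G55610), ERD5 (AT3G30775) and PROT2 (AT3G55740) lie on chromosome 3. P5CR (AT5G14800), PDH2 (AT5G38710), P5CDH (AT5G62530) and OAT (AT5G46180) lie on chromosome 5. No spot carried the TAIR code of PROT3 (AT2G36590, chromosome 2), so no level is given for it.

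The study hybridised 3 two-colour arrays, 1 for each state of water supply, and each array held RNA of both genotypes from rosette leaves of 5-week-old plants of ecotype Col-0. Wild type was in the Cy3 channel and the transgenic line AhNF-YC-OE in the Cy5 channel; NF-YC names a subunit of the CCAAT-binding factor NF-Y. The states were normal growth, water stress of 5 days, and recovery, which was 24 h after watering was resumed in plants stressed for 8 days. Both genotypes were kept at 22 °C in days of 16 h light and 8 h dark, and recovery therefore followed a longer stress than the stress array measured. The sources used here do not state the promoter of the transgene, the number of independent lines or the number of plants behind an RNA sample, and the transgene's own level was not analysed here.

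Proline accumulates in leaves that lose water. It is made from glutamate by P5C synthase (P5CS1 and P5CS2) and then P5C reductase (P5CR), and it is broken down in mitochondria by proline dehydrogenase (ERD5, also called ProDH1, and PDH2) and P5C dehydrogenase (P5CDH). Ornithine aminotransferase (OAT) feeds the same intermediate from ornithine, and the PROT carriers move proline and related compatible solutes across membranes. In Arabidopsis, P5CS1 is the isoform known for induction by dehydration, and ERD5 is known for repression during stress and strong induction on rewatering, when proline is consumed.

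With 1 array per state there was no spread between plants, no test could be made, and no p-value is given. Genotype and dye were the same on every array, so genotype cannot be told apart from the dye response of a probe, nor water supply from array. The error given here is technical: 236 control spots of 22 features, each printed several times, had an SD between spots of one feature of 0.115, 0.177 and 0.135 in the log2 genotype ratio under normal growth, water stress and recovery. For a change between arrays within the wild type the SD was 0.478 for water stress over normal growth, 0.421 for recovery over water stress and 0.689 for recovery over normal growth. These SDs were taken after median scaling, since Aquantile was run on gene spots alone. The changes set beside them below are Aquantile values. The arrays differed in brightness, with a median gene spot in the wild type of 4208, 1422 and 1399 scanner units. The 95th percentile of empty spots was 5668 in the wild type under normal growth against 400.1 and 260.1 on the other arrays. Thus 5 of the 9 proline genes (P5CS1, ERD5, OAT, PROT1 and PROT2) exceeded 95% of empty spots in 1 channel or both under normal growth, and 9 of 9 were on the other arrays. All 9 were above their local background in both channels of every array.

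The labelled tissue and the probe identities were checked on the same arrays. Among wild-type gene spots under normal growth, spots of 13 leaf mesophyll genes had a median percentile of 51.3, those of 2 root hair genes 37.1, those of 3 seed storage genes 63.4, and the spot of the pollen gene VGD1 88.6. Spots of the single leaf gene RCA ranged from 13.6 to 81.0, so brightness on these arrays does not check the labelled tissue either way. Over 1464 pairs of spots that carry one transcript code, the change from normal growth to water stress in the wild type had a correlation of 0.0953 between the spots of a pair, with a median absolute difference of 0.94. For the genotype ratio that correlation was 0.0535, 0.0831 and 0.164 under normal growth, water stress and recovery. The median absolute differences in this ratio were 0.18, 0.23 and 0.16. Spots with the same annotation therefore often gave different changes and genotype ratios, and 8 of the 9 proline genes rest on 1 spot each. For the stress change the median difference between such spots (0.94) was larger than the SD between control spots (0.478). A value past that SD is thus not shown to be beyond the difference between spots of one code. The part of the differences between such spots in the results below was not tested.

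The first comparison asks whether the proline genes differ between AhNF-YC-OE and wild type in each state. No proline gene was 2-fold apart between the genotypes on any of the 3 arrays. The count was 0 of 9 under normal growth, where 0.100% of all genes were 2-fold apart, 0 of 9 for water stress (0.834%) and 0 of 9 for recovery (0.438%). At 1.5-fold the count was again 0 of 9 on each array, against 1.72%, 5.35% and 2.13% of all genes. The median log2 ratio of the 9 genes was −0.03, 0.14 and 0.02, beside −0.01, 0.00 and −0.00 over all genes. With such low shares among all genes, a count of 0 in 9 does not set the proline genes apart.

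Between states, the genotype ratio differed by less than 2-fold for 9 of 9 genes. The share of all genes at 2-fold was 0.800% for water stress minus normal growth, 0.331% for recovery minus normal growth and 0.138% for recovery minus water stress. P5CDH and PROT1 had a ratio above 0 on all 3 arrays and P5CS1, P5CR and PROT2 below 0, which makes 5 of 9 with one sign; the share among all loci was 47.6%. That pattern of signs held for P5CDH under median centring, print-tip loess and the authors' deposited ratios, while PROT1 (normal growth), P5CS1 (water stress), P5CR (all 3 arrays) and PROT2 (water stress and recovery) changed sign under at least 1 of these.

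**Figure D1:**
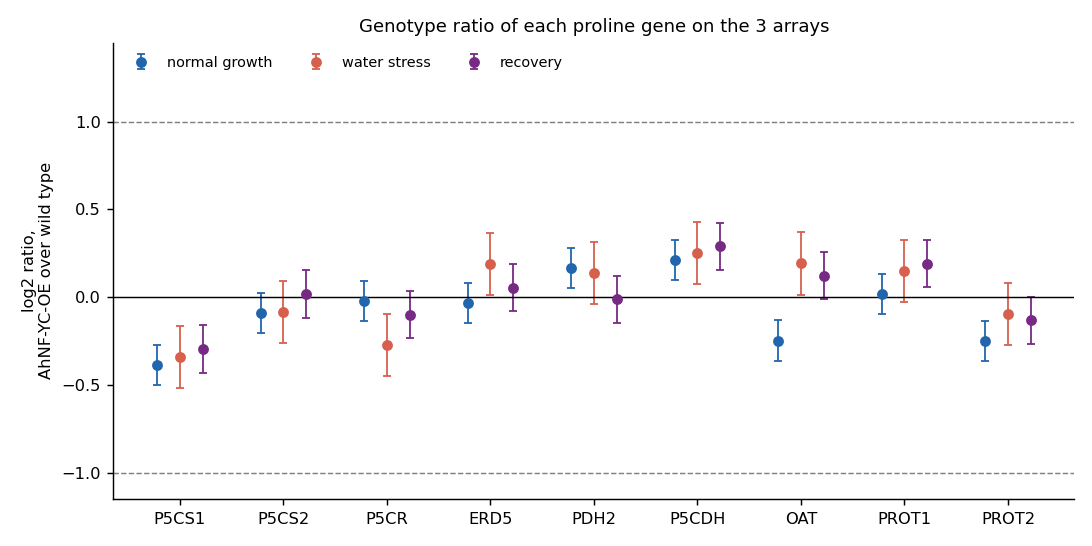
Log2 of the AhNF-YC-OE signal over the wild-type signal (vertical axis) for the 9 proline genes on the 3 arrays, 1 point per array; bars are ± the SD between spots of one control feature on that array and the dashed lines mark 2-fold. All points lie between −0.39 (P5CS1, normal growth) and 0.29 (P5CDH, recovery), and OAT alone lies more than 0.4 apart between arrays.

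The second comparison asks how the proline genes differ between states within each genotype. Under water stress, PDH2, PROT1 and P5CR were at least 2-fold higher than under normal growth in the wild type, and P5CS2 was at least 2-fold lower. That is 3 of 9 higher, where 15.2% of all genes were, and 1 of 9 lower, where 15.1% were. In AhNF-YC-OE, PDH2, PROT1, PROT2 and P5CDH were higher, 4 of 9 against 12.7% of all genes, and P5CS2 was lower, 1 of 9 against 13.0%. The median log2 change of the 9 genes was 0.87 in the wild type and 0.82 in AhNF-YC-OE, beside 0.07 and 0.04 over all genes. In the wild type that gap was seen with Aquantile alone. The medians there were 0.92 beside 0.94 with median scaling and 0.89 beside 0.89 with the authors' intensities scaled to a common median. With those intensities as deposited they were −0.66 beside −0.65. In AhNF-YC-OE the 9 genes stayed above all genes, at 1.16 beside 0.77, 1.16 beside 0.92 and −0.39 beside −0.62 in the same order. As deposited, the authors' intensities put 0 of 9 higher and 3 of 9 lower at 2-fold in each genotype. No share of all genes is given for these counts, and the median of all genes there was −0.65 in the wild type and −0.62 in AhNF-YC-OE. In RNA of whole leaves, fewer cells of a type and less RNA per cell cannot be told apart.

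From water stress to recovery, P5CS2 alone of the 9 genes passed 2-fold, and it was higher in both genotypes. In wild type this was 1 of 9 higher (3.95% of all genes) and 0 of 9 lower (4.01%), and in AhNF-YC-OE 1 of 9 higher (3.10%) and 0 of 9 lower (3.67%). Recovery over normal growth had PROT1, PROT2 and PDH2 at least 2-fold higher in both genotypes. The counts were 3 of 9 higher and 0 of 9 lower in the wild type, against 16.4% and 15.9% of all genes. In AhNF-YC-OE they were likewise 3 of 9 and 0 of 9, against 14.3% in each direction. With the authors' intensities as deposited the counts were 0 of 9 higher and 4 of 9 lower in each genotype. PDH2 was then below 0 in both genotypes, while PROT1 and PROT2 stayed above 0. The median of all genes there was −0.86 in the wild type and −0.83 in AhNF-YC-OE, beside −0.82 and −0.61 for the 9 genes. No share of all genes is given for these counts.

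All 9 genes had the same sign in both genotypes in each of these 3 responses. The genotypes share the arrays, so the responses are not independent. The absolute difference between the genotypes' responses had a median of 0.13 for water stress over normal growth, 0.07 for recovery over water stress and 0.11 for recovery over normal growth.

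The direction of a change between arrays depended on how the arrays were scaled to each other. The array of normal growth was the brightest, and the part of this in the changes was not tested. With each channel scaled to a common median over gene spots, the median of all genes in the wild type was 0.94 for water stress over normal growth. It was −0.65 with the authors' intensities as deposited and 0.07 with Aquantile. Each change between arrays was therefore computed under 5 settings, called scalings here, which are not 5 separate supports. In the wild type, the deposited intensities of the proline genes nearly equal scanner intensity less local background. P5CS1 under normal growth had 23863, 46.4 and, as deposited, 23816. These deposited wild-type values thus carry no visible scaling between arrays. Scaled to a common median, they gave 0.89 for all genes under stress, close to the 0.94 of median scaling. Under water stress P5CS2 was lower, and P5CR and PDH2 were higher, under all 5 scalings in both genotypes, and ERD5 was lower under all 5 in the wild type and under 3 of 5 in AhNF-YC-OE. PROT1 and PROT2 were higher under 4 of 5 in both genotypes, and P5CDH was higher under 3 of 5 in the wild type and 4 of 5 in AhNF-YC-OE.

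**Figure D2:**
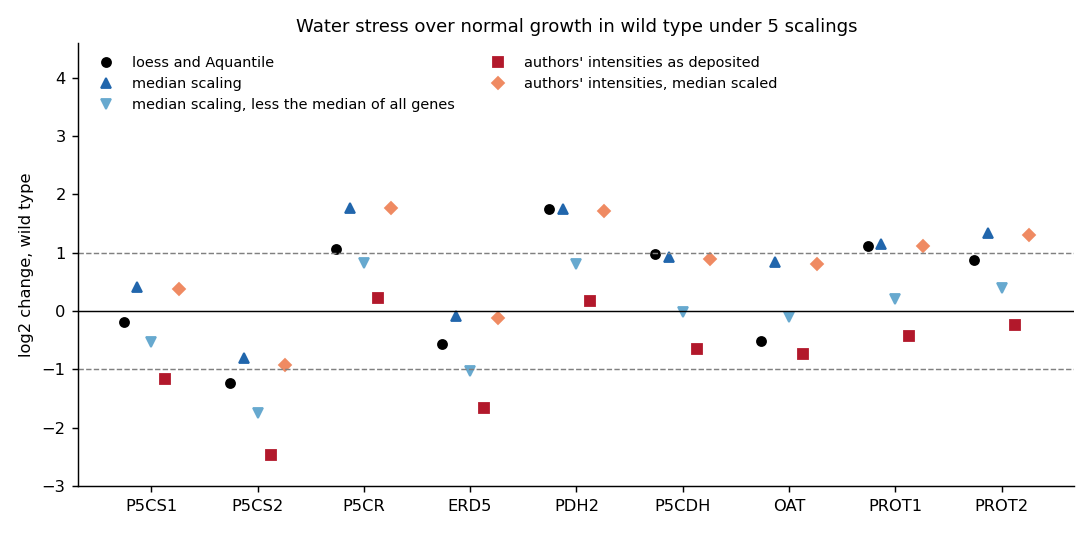
Log2 change from normal growth to water stress in the wild type (vertical axis) for each proline gene, with 1 marker for each of 5 scalings. The authors' intensities as deposited are counted among the 5, although they carry no visible scaling between arrays in the wild type. Dashed lines mark 2-fold. P5CS2 and ERD5 lie below 0 and P5CR and PDH2 above 0 under every scaling, whereas P5CS1, P5CDH, OAT, PROT1 and PROT2 have markers on both sides of 0.

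Among the synthesis genes, P5CS1 differed little between states with Aquantile values, and P5CS2 was low under water stress in both genotypes. P5CS1 had scanner intensities of 23863, 10662 and 9202 in the wild type, beside 17049, 6911 and 6321 in AhNF-YC-OE under normal growth, water stress and recovery. After normalization its log2 level was 13.75, 13.57 and 13.52 in the wild type, beside 13.36, 13.23 and 13.22 in AhNF-YC-OE. AhNF-YC-OE thus lay below wild type on each array. The log2 ratio was −0.39, −0.34 and −0.30, which is 1.31-, 1.27- and 1.23-fold lower, and it was the lowest of the 9 genes each time. Among all genes these ratios stood at percentiles 3.05, 11.0 and 8.43. Each was further from 0 than the SD between control spots, and the authors' deposited table has −0.33, −0.21 and −0.22; median centring turned the water stress ratio to 0.17 and left −0.12 and −0.00 on the other arrays. The change of P5CS1 from normal growth to water stress, −0.18 in the wild type and −0.13 in AhNF-YC-OE, was within the SD between control spots and was above 0 under 2 of the 5 scalings in each genotype. With the authors' intensities as deposited it was past 2-fold, at −1.17 and −1.05, and recovery over normal growth was −1.38 and −1.27.

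P5CS2, the P5C synthase isoform expressed in dividing tissue and needed for housekeeping synthesis, had log2 levels of 10.32, 9.09 and 10.16 in the wild type, beside 10.23, 9.003 and 10.18 in AhNF-YC-OE. The stress array was the low one in both genotypes, and normal growth and recovery lay close together. In wild type the gene was 2.35-fold lower under water stress than under normal growth, and in recovery it was back above the stress level. The log2 changes were −1.23 for stress over normal growth and 1.07 for recovery over stress, and in AhNF-YC-OE −1.23 and 1.17. Its place among wild-type gene spots, which needs no scaling between arrays, went from the 46.3 percentile to 32.1 and 44.7. The higher level in recovery than under stress held under all 5 scalings, between 0.70 and 1.07 in the wild type and between 0.90 and 1.37 in AhNF-YC-OE. The genotype ratio was −0.09, −0.09 and 0.02, within the SD between control spots on each array.

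P5CR, the reductase of the second step and encoded by a single gene, was dim on the array of normal growth, at 681 scanner units in the wild type and 476 in AhNF-YC-OE. Its log2 level was 8.47, 9.54 and 8.92 in the wild type, beside 8.45, 9.27 and 8.82 in AhNF-YC-OE. The stress array was the high one in both genotypes. Water stress over normal growth was 2.099-fold higher in the wild type (log2 1.07) and 1.76-fold higher in AhNF-YC-OE (0.82), and recovery over water stress was −0.62 and −0.45. Over the 5 scalings the stress change ranged from 0.23 to 1.77 in the wild type and from 0.11 to 1.66 in AhNF-YC-OE, and the spot under normal growth was brighter than 81.8% and 80% of empty spots. The genotype ratio was −0.02, −0.27 and −0.10, and print-tip loess turned these to 0.05, 0.01 and 0.08. Thus P5CS2 and P5CR, which act in sequence, had opposite directions under water stress.

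**Figure D3:**
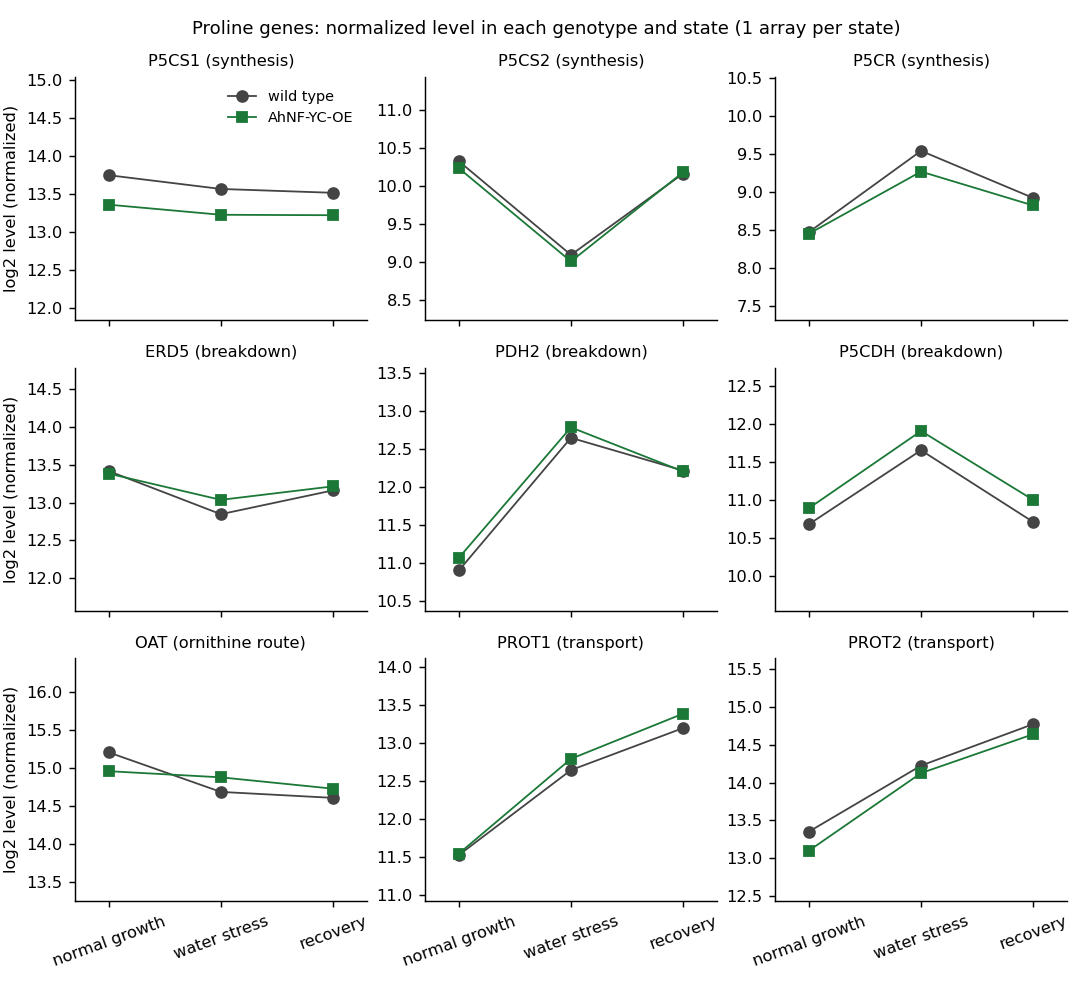
Normalized log2 level (vertical axes, each spanning the same range of log2 units) of the 9 proline genes on the arrays of normal growth, water stress and recovery, for wild type (circles) and AhNF-YC-OE (squares), 1 array per state. P5CS2 has its lowest point under water stress, P5CR, PDH2 and P5CDH their highest, and PROT1 and PROT2 are highest in recovery; these are Aquantile values, and under the authors' intensities as deposited P5CDH, PROT1 and PROT2 are lower under water stress than under normal growth.

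Among the breakdown genes, the proline dehydrogenases differed from each other. ERD5 had log2 levels of 13.41, 12.85 and 13.16 in the wild type, beside 13.38, 13.04 and 13.21 in AhNF-YC-OE. The stress array was the low one in both genotypes, by log2 values of −0.57 in the wild type and −0.35 in AhNF-YC-OE. Recovery over water stress was 1.24-fold higher in the wild type (log2 0.31) and 1.13-fold higher in AhNF-YC-OE (0.18), both within the SD between control spots; the second was below 0 under 3 of the 5 scalings. No strong induction on rewatering was therefore detectable at this time point with this probe. The genotype ratio of ERD5 was −0.03, 0.19 and 0.05, and median centring turned the first to 0.20.

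PDH2, the second proline dehydrogenase, had the highest Aquantile change of the 9 genes under water stress. Its scanner intensity was 4823, 5438 and 3825 in the wild type, beside 3973, 4434 and 2899 in AhNF-YC-OE, so it was the brighter on the stress array although the median gene spot was dimmer there than under normal growth (1422 against 4208 units). The log2 level was 10.90, 12.65 and 12.22 in the wild type, beside 11.07, 12.79 and 12.21 in AhNF-YC-OE. Both genotypes were low under normal growth and high on the other arrays. Water stress over normal growth was 3.36-fold in the wild type (log2 1.75) and 3.29-fold in AhNF-YC-OE (1.72), at percentiles 95.5 and 95.9 of all genes. The 2-fold call was lost in the wild type with median scaling less the median of all genes (0.80), and in both genotypes with the authors' intensities as deposited (0.17 and 0.26). The spot under normal growth was not brighter than 95% of empty spots. With Aquantile values the gene was 2.49-fold and 2.20-fold higher in recovery than under normal growth, but the authors' intensities as deposited put that comparison at −0.34 and −0.35. The genotype ratio of PDH2 was 0.17, 0.14 and −0.01, and the last was above 0 under 3 other normalizations.

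P5CDH, which turns P5C back into glutamate, had log2 levels of 10.68, 11.66 and 10.71 in the wild type, beside 10.89, 11.91 and 11.00 in AhNF-YC-OE. The stress array was the high one, and normal growth and recovery differed by 0.03 in the wild type and 0.11 in AhNF-YC-OE. Water stress over normal growth was 1.96-fold in the wild type and 2.02-fold in AhNF-YC-OE, so the call at 2-fold in one genotype alone is no difference between them. The authors' intensities as deposited gave −0.66 and −0.62 for that change. Recovery over water stress was −0.94 and −0.91, at percentiles 4.74 and 4.81 of all genes, and stayed below 0 under all 5 scalings.

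AhNF-YC-OE lay above wild type in P5CDH on each array. The log2 ratio was 0.21, 0.25 and 0.29, which is 1.16-, 1.19- and 1.22-fold, and it stood at percentiles 87.1, 86.7 and 95.9 of all genes. The ratio was above 0 under each of 4 normalizations, with lowest values of 0.11, 0.22 and 0.21 on the arrays of normal growth, stress and recovery. The neighbouring gene SRO5 (AT5G62520) overlaps P5CDH in the reference annotation and is known as its antisense partner. Spot 9326 has the TAIR code of SRO5 but carries the P5CDH code in the older TIGR column of the array annotation. The gene behind this spot was not settled. In AhNF-YC-OE under water stress it was brighter than 92.5% of empty spots. That spot had wild-type intensities of 1106, 433 and 419, the first brighter than 85.5% of empty spots, and an Aquantile change of −0.84 from normal growth to water stress in the wild type, where the P5CDH spot had 0.97. The P5CDH spot was itself below 0 under 2 of the 5 scalings. The genotype ratio of spot 9326 was −0.02, −0.03 and 0.23.

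OAT, the enzyme of the ornithine route, had the widest spread of genotype ratio over the arrays. Its scanner intensity was 37976, 22723 and 21571 in the wild type, beside 38367, 30055 and 24349 in AhNF-YC-OE, and its log2 level was 15.20, 14.68 and 14.60 in the wild type, beside 14.95, 14.87 and 14.72 in AhNF-YC-OE. Wild type was the higher genotype under normal growth and the lower one on the other arrays. The log2 ratio was −0.25, 0.19 and 0.12, and the ratio under water stress minus that under normal growth was 0.44, or 1.36-fold, against an SD of 0.190 for this difference between control spots. This placed OAT at percentile 93.7 of all genes. Median centring gave ratios of 0.38, 1.20 and 0.71, so that the sign under normal growth turned and the stress ratio passed 2-fold. The change from normal growth to water stress was −0.52 in the wild type and −0.08 in AhNF-YC-OE, and it was above 0 under 2 of the 5 scalings in the wild type and 3 of 5 in AhNF-YC-OE.

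**Figure D4:**
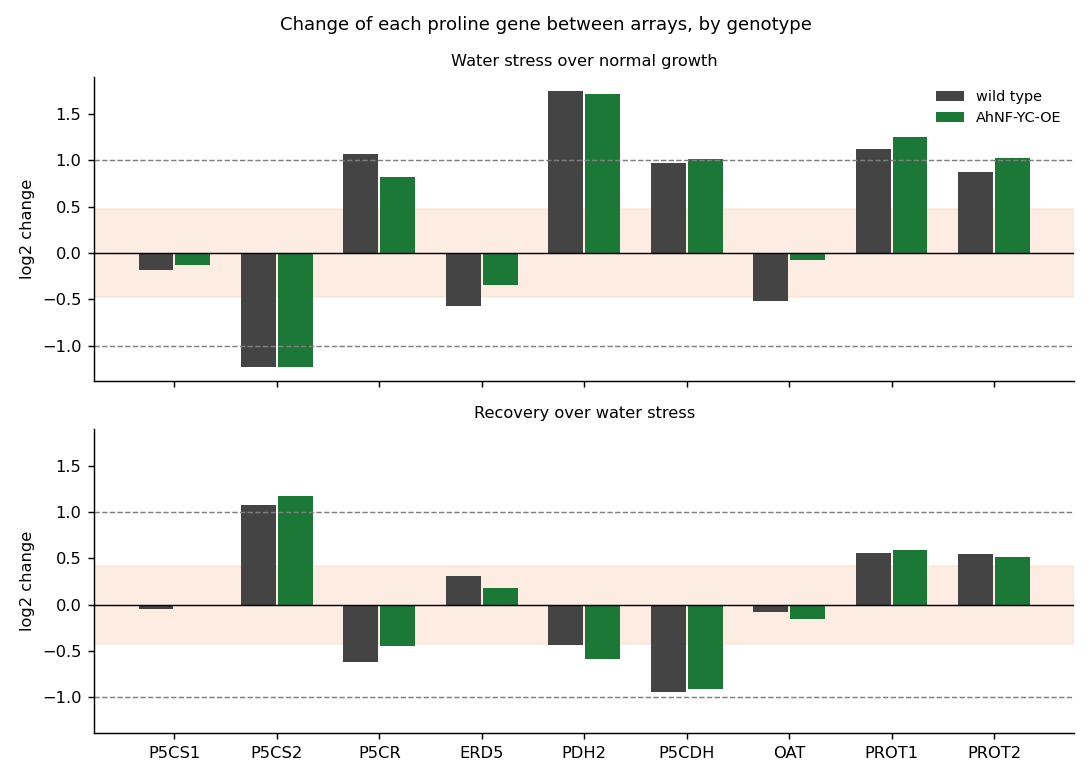
Log2 change between arrays (vertical axes) of each proline gene in the wild type (dark bars) and AhNF-YC-OE (green bars), with stress over normal growth above and recovery over stress below. Shading is ± the wild-type SD between spots of one control feature after median scaling, whereas the bars are Aquantile values. Dashed lines mark 2-fold. P5CS2 has bars of opposite direction in the 2 panels, and the paired bars of the genotypes differ most for OAT under water stress (0.44); on other scalings between arrays the stress signs of P5CS1, P5CDH, OAT, PROT1, PROT2 and, in AhNF-YC-OE, ERD5 turn, as do the recovery signs of ERD5 in AhNF-YC-OE and OAT in the wild type.

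Of the carriers, PROT1 and PROT2 were lowest under normal growth and highest in recovery in both genotypes. PROT1 had log2 levels of 11.52, 12.64 and 13.19 in the wild type, beside 11.54, 12.79 and 13.38 in AhNF-YC-OE. Water stress over normal growth was 2.17-fold in the wild type and 2.38-fold in AhNF-YC-OE, which turned to log2 values of −0.43 and −0.39 with the authors' intensities as deposited. Recovery over normal growth was 3.19-fold (log2 1.67) and 3.59-fold (1.84), and it was above 0 under all 5 scalings, with the lowest at 0.02 in the wild type and 0.12 in AhNF-YC-OE. The genotype ratio was 0.02, 0.15 and 0.19, and the first was −0.02 with median centring.

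PROT2, a carrier of proline, glycine betaine and related solutes, had 3 spots, and the brightest probe (spot 29116, transcript code AT3G55740.1) stands for the gene. Its log2 level was 13.35, 14.22 and 14.77 in the wild type, beside 13.10, 14.12 and 14.64 in AhNF-YC-OE. Recovery over normal growth was 2.67-fold (log2 1.42) and 2.89-fold (1.53), and it was above 0 under all 5 scalings, between 0.27 and 1.86 in the wild type and between 0.49 and 2.28 in AhNF-YC-OE. On this spot AhNF-YC-OE was the lower genotype, with log2 ratios of −0.25, −0.10 and −0.13, which median centring turned to 0.65 under stress and 0.47 in recovery.

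The other PROT2 spots carry the code AT3G55740.2 and did not follow the first. Spot 19116 had wild-type intensities of 733, 1236 and 440, with a log2 change of 1.92 from normal growth to water stress and −1.67 from water stress to recovery. Spot 24116 had 125, 246 and 157, against a local background of 47.4, 48.9 and 51.3, and its changes were −0.04 and 0.09. The 3 spots thus disagree on whether PROT2 was higher in recovery than under stress. They also disagree on the genotype ratio, which was 0.08, 0.18 and 0.21 on spot 19116 and 0.17, 0.06 and −0.10 on spot 24116. The mean over the spots of the gene turned the ratio to 0.00 under normal growth and 0.05 under water stress.

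**Figure D5:**
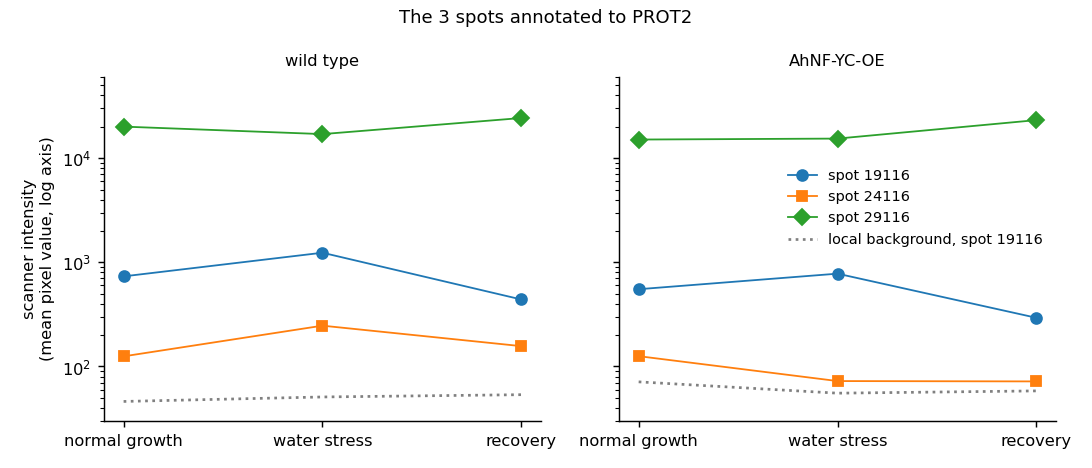
Scanner intensity (mean pixel value, log axis) of the 3 spots annotated to PROT2 on the 3 arrays, in the wild type (left) and AhNF-YC-OE (right); the dotted line is the local background of spot 19116. Spot 29116 lies highest and peaks in recovery, spot 19116 peaks under water stress, and spot 24116 lies lowest.

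The patterns over the 6 normalized values of each gene, centred on its mean, were compared by root mean square difference. ERD5 and OAT were nearest to each other (0.161), as were PROT1 and PROT2 (0.188) and P5CR and P5CDH (0.266). The nearest gene to P5CS1 was OAT (0.221), the nearest to P5CS2 was ERD5 (0.400), and the nearest to PDH2 was P5CR (0.401). P5CS2 and PDH2 were the farthest apart, at 1.22. The 3 arrays are shared by both genotypes, so these are descriptions over 3 states.

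The genes around the proline pathway were counted in 5 lists with 53 members, all measured. No member of any list was 2-fold apart between the genotypes on any array. Among all genes 0.100%, 0.834% and 0.438% were, under normal growth, water stress and recovery. With such low shares this does not set the lists apart. For water stress over normal growth in the wild type, 15.2% of all genes were 2-fold higher and 15.1% lower, and the list counts are to be read against these shares. Of 12 genes that supply glutamate, 0 were higher and 2 were lower, with a list median of 0.01. These were GDH2, a glutamate dehydrogenase (−2.40), and GLN1;2, a cytosolic glutamine synthetase (−2.39), and both were lower in AhNF-YC-OE as well (−2.99 and −2.01) and under all 5 scalings.

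Of 15 genes of arginine and ornithine metabolism, 2 were higher and 4 lower in the wild type under water stress, with a median of −0.13. BAC2, a mitochondrial carrier of basic amino acids, stood at −3.28 in the wild type and −3.49 in AhNF-YC-OE. NAOD, which releases ornithine from acetylornithine, stood at 2.05 and 2.07, and OTC, which uses ornithine to make citrulline, at −1.85 and −1.78. NAGS1, which starts ornithine synthesis, stood at −1.51 and −1.26, and these 4 kept their signs under all 5 scalings. The other 2 genes past 2-fold did not, as ARGAH1, an arginase (−1.01), was above 0 under 3 of 5 and NAGS2 (1.08) below 0 under 1 of 5.

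Of 10 other amino acid carriers that take proline, 0 were higher and 5 were lower in the wild type. Their median was −0.86, where PROT1 and PROT2 had 1.12 and 0.87, all as Aquantile values. With the authors' intensities as deposited PROT1 and PROT2 were at −0.43 and −0.24, and the list median there is not given. The other PROT2 spots had Aquantile changes of 1.92 and −0.04. The amino acid permeases AAP3 (−3.004), AAP7 (−1.90), AAP8 (−1.90) and AAP5 (−1.45) were lower under all 5 scalings, and AAP1 (−1.03) under 3 of 5. Of 9 bZIP factors of groups C and S1, known as regulators of proline dehydrogenase genes, BZIP10 alone passed 2-fold in the wild type (1.48, 1 higher and 0 lower). Of 7 drought reference genes 2 were higher and 1 lower. The dehydrin genes COR47 (2.69) and ERD10 (2.12) were higher under all 5 scalings. RD29A (0.44), RD29B (0.57), RAB18 (0.35) and RD22 (0.40) stayed below 2-fold, near or within the SD between control spots (0.478). Of these, RD29B was below 0 under 2 of 5 scalings in the wild type, and RAB18 and RD22 under 1 of 5. COR15A, which encodes a chloroplast cryoprotectant, was at −1.11 in the wild type and below 0 under all 5 scalings there, but above 0 under 2 of 5 in AhNF-YC-OE.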

How the data were processed

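The submitters deposited scanner files of 3 two-colour arrays, in which the authors' values are mean pixel intensities of each spot and its local background, per the file headers. The authors also deposited normalized intensities and a log2 ratio with AhNF-YC-OE as numerator. The sources used here do not say how they normalized, or with which scanner and software. For the proline genes, the deposited wild-type intensities nearly equal scanner intensity less local background. All the authors' ratios recur in the deposited series table within 1e-06, so direction and log base are known; its column medians are −0.0066, 0.0071 and 0.0040, and the authors' centring is unknown. Per the file headers, locus codes come from TAIR release 7 and, in an older column, TIGR release 5. The RefSeq table for TAIR10.1 matched 10 of 10 genes and gave names and neighbours.

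Scanner intensities were corrected with normexp (offset 50) and normalized by whole-array loess, where empty and control spots had weight 0. Aquantile between arrays followed (limma 3.58.1, R 4.3.3). The genotype ratio after loess was tested on simulated data. The levels after Aquantile, on which the changes between arrays rest, were not. Spots of one transcript code were averaged and the brightest code stands for a locus. A gene was counted where its brighter channel exceeded local background by 2 SD. Differences were counted from 2-fold. Tables were made with Python 3.11.15. The design has 12 comparisons and no test: arrays carry no counting depth, and their number (1 per state) limits the precision. The alternatives were other background corrections, normalizations, probe rules, filters and thresholds; 2 scalings between arrays and the older gene codes were added after seeing the data. The proline genes and the pathway lists were chosen with earlier results of these data known. All 10 genes are named whatever their value, and at most 4 genes of a list, those with the largest change past 2-fold. ARGAH1, NAGS2, AAP1, RD29A, RD29B, RAB18 and RD22 were named in addition, after their values were seen.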

Additional observations from a re-analysis of the deposited data

Results flagged for a closer look

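The genotype ratio of OAT was below 0 under normal growth and above 0 under water stress. The difference between these arrays was 0.44 on the log2 scale and was not tested, since each state has 1 array.

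The code of PROT3, a proline carrier known from the epidermis, appears only in the older TIGR column of the array annotation, on spots 20870 and 25870, while their TAIR codes are those of AT2G36580 and AT5G46250. Neither spot entered the comparisons. Spot 20870 had a log2 genotype ratio of 0.59 on the array of normal growth, beside 0.02 under water stress and 0.06 in recovery. Spot 25870 had a ratio of 0.0144 on the array of normal growth, beside −0.17 under stress and −0.14 in recovery. The gene behind either spot was not settled.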

How the results depend on the processing

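No paired analysis was possible because each state has 1 array. The counts of proline genes at 2-fold are 0 for every genotype ratio, 4, 1 and 3 in the wild type for water stress over normal growth, recovery over water stress and recovery over normal growth, and 5, 1 and 3 in AhNF-YC-OE. With no background correction, plain subtraction, the mean over all spots and the older codes, every count stayed within 1.5 times these. Median centring put 1 gene at 2-fold between genotypes under stress. Median scaling gave 0 for recovery over water stress in the wild type and 2 in AhNF-YC-OE. Less the median of all genes, it gave 2, 0 and 1 in the wild type, and 3 for stress over normal growth in AhNF-YC-OE. The authors' values gave 0 for recovery over water stress in both genotypes, as deposited and scaled to a common median, and 3 for stress over normal growth in AhNF-YC-OE as deposited, all lower, where Aquantile had 4 higher and 1 lower. Restricted to genes brighter than 95% of empty spots, stress over normal growth had 1 of 5 in the wild type and 2 of 5 in AhNF-YC-OE. At 1.5-fold, recovery over water stress had 3 in each genotype, where 26.5% of all genes in the wild type and 22.6% in AhNF-YC-OE passed. For the counts under the other settings no share of all genes is given here. As deposited, the authors' values reversed PROT1 (−0.43 in the wild type, −0.39 in AhNF-YC-OE), P5CDH (−0.62) and PROT2 (−0.0639) in AhNF-YC-OE for stress over normal growth, and PDH2 for recovery over normal growth (−0.34 and −0.35). The median of all genes moved with the scaling, from 0.07 with Aquantile to 0.94 or −0.65 for wild-type stress. Other causes were not tested. Genotype ratios changed sign in 8 of 27 values with median centring, 4 in the authors' values and 5 with loess by print-tip block. Signal over background limits P5CR, P5CS2, PDH2 and P5CDH under normal growth, where they were not brighter than 95% of empty spots.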
